A study of Bos taurus with 9 samples.

Results

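Solute carriers are membrane proteins that move ions, nutrients, nucleotides and metals across cell and organelle membranes, and 18 genes of the family were followed here in bovine rectal tissue. They are the genes whose symbol begins with SLC and a digit in the readable part of the study's list of abundant rectal transcripts, which held 1998 named genes, with SLC26A3 set aside. All 18 had an Ensembl identifier in the deposited table of 24616 genes, and all 18 passed the filter on low values that left 15410 genes for testing. Because the list holds abundant transcripts, carriers of low level are not among the members.

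The hindgut epithelium absorbs short-chain fatty acids, sodium and chloride, and secretes bicarbonate, chloride and mucus, and each of these tasks needs carriers in its plasma membrane. Carriers of the Golgi, endoplasmic reticulum and vesicles bring activated sugars and zinc to the enzymes that build mucins and other secreted proteins. Carriers of the SLC25 family sit in the inner mitochondrial membrane and exchange phosphate, adenine nucleotides and other solutes between the matrix and the cytosol.

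The study asked how rectal gene expression differs between steers that shed Escherichia coli O157 at very high numbers, the super-shedders (SS), and steers negative for the organism, the non-shedders (NS). Tissue was taken near the rectal-anal junction shortly after death from 5 SS (274, 287, 294, 299 and 310) and 4 NS (108, 152, 165 and 242), which were feedlot steers on a barley-based finishing diet, with no experimental infection or treatment. The SS had been identified days before slaughter, and by then, the study states, not all of them still shed at the super-shedding level. Total RNA was sequenced after ribosomal RNA removal, with 1 library per steer, and expression is given in CPM, the reads of a gene per 1000000 reads counted in the library. Between 5412523 reads (SS 274) and 12278503 reads (NS 108) were assigned to genes per library, so the lowest member value, 9.21 CPM for SLC37A1 in SS 294, still rested on 69 reads. In what follows, values are listed in the order 108, 152, 165 and 242 for NS and 274, 287, 294, 299 and 310 for SS, ± is the SD over 4 NS or 5 SS, and differences are SS minus NS on the log2(CPM + 0.5) scale with their standard error (SE).

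The tissue label was checked against markers, and 3 of the 9 libraries stood apart. All 13 markers of colonic epithelium were measured and none was at 0 in any steer. Their summed level was 18809, 18771, 13643 and 1613 CPM in NS, and 1909, 17843, 165, 11514 and 22308 CPM in SS. PIGR, the receptor that carries immunoglobulin A across the epithelium, had the highest CPM of them in every steer but SS 274, where LYPD8 was higher (478 CPM). PIGR stood at 11237, 10297, 6217 and 720.5 CPM in the NS and at 389, 8955, 82.2, 8191 and 13499 CPM in SS. NS 242, SS 274 and SS 294 thus held little epithelial RNA beside the other 6 steers. The 5 goblet cell markers, led by CLCA1, summed to 10574, 15834, 9811 and 1101 CPM in NS and to 1081, 12999, 94.1, 5145 and 15670.3 CPM in SS, with the same 3 steers lowest.

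The 3 steers poor in epithelium were not alike in what else they held. The 10 smooth muscle markers, led by MYH11, summed to 10512, 10701, 15889 and 2849.9 CPM in NS and to 416, 1906, 55169, 28232 and 4498 CPM in SS. For the 10 fibroblast markers, led by COL1A2, the sums were 3920.1, 6136, 4519 and 8306 CPM in NS and 24986, 2368, 19066, 5176 and 4193 CPM in SS. SS 294 was the richest in smooth muscle and SS 274 the poorest, and both were rich in fibroblast transcripts. The 7 leukocyte markers, led by PTPRC, summed to 937, 708, 771 and 3591 CPM in NS and to 581, 675, 162, 655 and 543 CPM in SS, so that NS 242 was far above every other steer. The 4 macrophage markers, led by C1QA, reached 1113 CPM in SS 274 and 854 CPM in NS 242, against 209.5 to 330.2 CPM in the other 7 steers. The 3 adipocyte markers, led by LPL, summed to 3399 CPM in SS 274, 922 CPM in NS 242 and 96.9 to 417 CPM in the others. The high sums of SS 274 and NS 242 came from LPL and FABP4, for which they were the highest steers. CFD, the other marker of the list, was lowest in SS 294 (13.3 CPM), SS 274 (56.0 CPM) and NS 242 (69.2 CPM) and reached 164 CPM in SS 287. CFD was above LPL in NS 108, NS 152, SS 287, SS 299 and SS 310. Its median over the 9 steers was 101 CPM, against 43.6 CPM for LPL. The 3 endothelial markers, led by PECAM1, ran from 76.8 CPM in SS 287 to 588 CPM in SS 274.

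Between SS and NS, the mean log2 level of the epithelial markers was 7.34 ± 2.76 in SS and 8.55 ± 1.56 in NS (exact two-sided permutation test over steers, p = 0.563). Of the 8 marker lists, that of leukocytes alone had groups that did not overlap, with a mean of 5.46 ± 0.91 in SS and 6.89 ± 1.10 in NS (exact permutation p = 0.0159, and 0.127 after Benjamini-Hochberg adjustment over the 8 lists). The margin was small, with 6.12 in SS 287, the highest SS, and 6.17 in NS 152, the lowest NS. CD53, LCP1 and CD48 had every SS below every NS, as 2.1% of all genes had, while PTPRC, CORO1A, CD3G and CXCR4 overlapped. Whether the groups stay apart under median-of-ratios scaling was not tested. The other 6 lists had exact permutation p from 0.397 to 0.849. No marker at 0 was found in any of the lists. In bulk tissue, fewer cells of a type and less RNA per cell cannot be told apart.

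No solute carrier differed between SS and NS beyond the spread between steers. With limma and Benjamini-Hochberg adjustment over all genes tested, 0 of 18 members passed both an adjusted p of 0.05 and a log2 difference of 1 in either direction, and neither did any other gene (0% of 15410). At the same limits the study did call genes in these steers, most of them lower in SS. It used Cuffdiff on FPKM, which was not rerun here, so the lack of calls is that of limma on CPM. At an unadjusted p below 0.05, 0 of 18 members were lower in SS, against 3.6% of all genes tested, and 0 of 18 were higher, against 0.357%. edgeR and DESeq2 on the recovered reads likewise called 0 of 18 members, where they called 0% and 0.125% of all genes, and each had 0 of 18 members at an unadjusted p below 0.05 in either direction, against 3.87% of all genes in edgeR and 5.89% in DESeq2. No member had every SS below every NS, which 2.1% of all genes had, and no member had every SS above every NS, which 0.162% had. The lowest unadjusted p of a member was that of SLC20A1, 0.126 in limma, and the adjusted p of the 18 ran from 0.928 to 0.995 in limma with Benjamini-Hochberg adjustment.

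The mean log2 level was lower in SS for 14 of the 18 members, or 77.8%, beside 64.8% of all genes tested and 73.7% of the 1996 named genes of the same list that were tested. The median difference was −0.19 over the members, −0.13 over all genes and −0.18 over the named genes. Rescaling the libraries by median-of-ratios size factors moved the median of all genes from −0.13 to 0.0082, and 10 of 18 members, or 55.6%, were then lower in SS, beside 48.9% of all genes and 53.9% of the named genes. Under that scaling SLC38A2, SLC4A4, SLC30A5 and SLC25A6 changed sign, and under edgeR and DESeq2 SLC38A2, SLC35A3, SLC30A5 and SLC25A6 did. The size of most member differences also depended on the method. For members it is given for edgeR and DESeq2 beside limma where it moved by more than 1.5 times. Partner genes are given from limma only. The members also varied from steer to steer. The SD of log2 values over the 9 steers had a median of 0.75 over the members, beside 0.50 over all genes tested and 0.41 over the named genes, and it ran from 0.20 for SLC25A6 to 1.79 for SLC25A5. SS 274 and SS 294 were each the lowest of the 9 steers for 7 members, and SS 287 was the highest for 6.

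**Figure D1:**
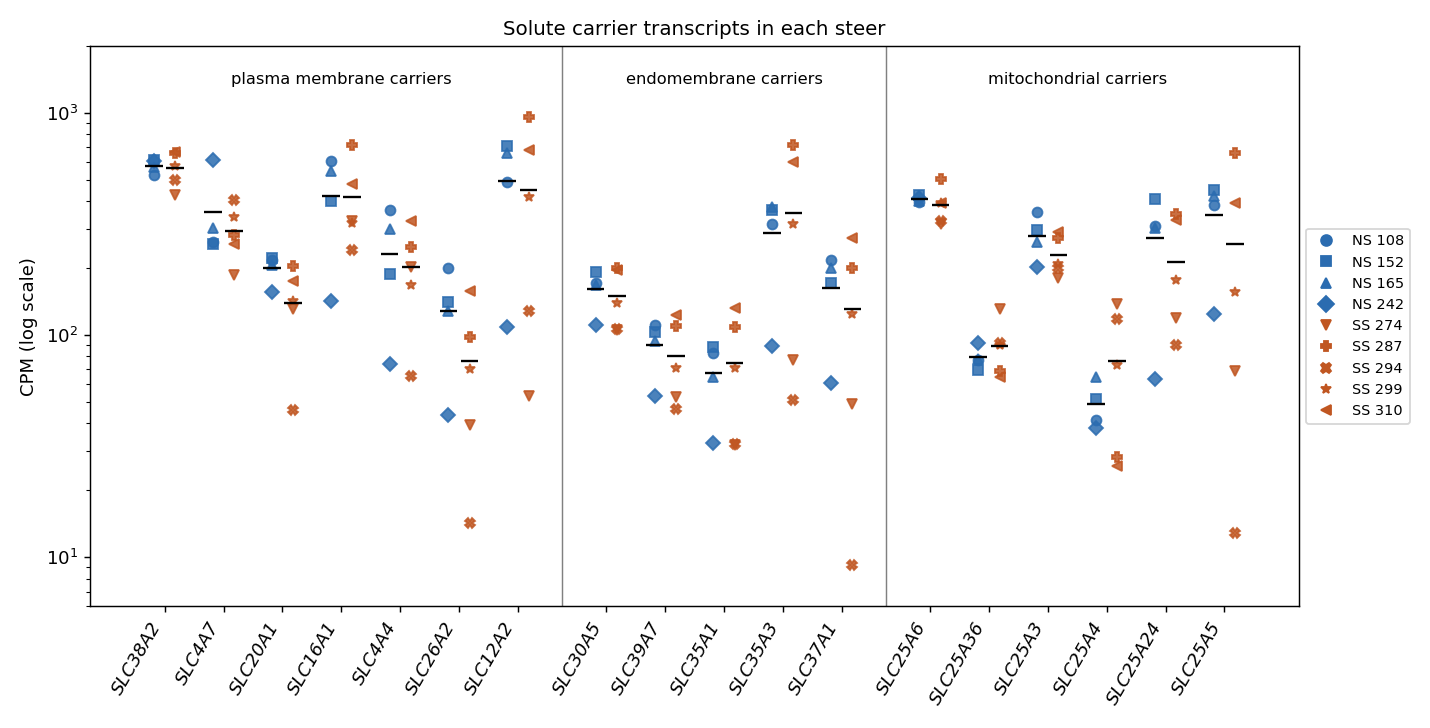
Each point is the CPM (log axis) of a solute carrier transcript in a steer, with NS in blue, SS in orange and black bars for the group means; genes are ordered by their spread within each class. The groups overlap for all 18 members, and the widest ranges, those of SLC25A5 and SLC37A1, end in SS 294.

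Among the 7 plasma membrane carriers, those of chloride and bicarbonate come first. SLC12A2 (ENSBTAG00000009637), the basolateral sodium-potassium-chloride cotransporter that loads epithelial cells with chloride for secretion, stood at 486, 711, 661 and 109 CPM in the NS and at 53.0, 955, 129, 416 and 683 CPM in SS. The lowest values were those of SS 274, NS 242 and SS 294, the highest was that of SS 287, and the groups overlapped over nearly the whole range. Means were 447 ± 378 CPM in SS and 492 ± 273 CPM in NS. The difference of −0.48 (SE 0.90, exact permutation p = 0.69) was −0.048 in edgeR, −0.031 in DESeq2, 0.12 without SS 274 and −1.10 without NS 242.

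SLC4A4 (ENSBTAG00000002348), the electrogenic sodium bicarbonate cotransporter, had 364, 189, 299.8 and 74.2 CPM in NS and 203, 249.8, 65.7, 168 and 326 CPM in SS. SLC4A7 (ENSBTAG00000018227), its electroneutral relative, which is widely expressed, had 261, 257, 304 and 611 CPM in NS and 187, 281, 406, 339.9 and 258 CPM in SS. The steers did not rank alike for these relatives: NS 242 was the highest of all for SLC4A7 and next to lowest for SLC4A4, SS 294 was the lowest for SLC4A4 and next to highest for SLC4A7, and SS 274 was the lowest for SLC4A7 with a middling SLC4A4. The difference was −0.15 (SE 0.55) for SLC4A4, with exact permutation p = 0.778, and −0.23 (SE 0.31) for SLC4A7, with exact permutation p = 0.54. In edgeR these were −0.089 and −0.13, and in DESeq2 −0.069 and −0.11. Without NS 242 they were −0.62 for SLC4A4 and 0.060 for SLC4A7, and SLC4A4 came to 0.15 without NS 108, 0.054 without NS 165 and 0.21 without SS 294.

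The log2 ratio of SLC4A4 to SLC4A7, which does not depend on the scaling of the libraries, was 0.48, −0.45, −0.02 and −3.03 in NS and 0.12, −0.17, −2.62, −1.02 and 0.34 in SS. As the values are not corrected for transcript length, the ratio is compared between steers only. It was low in NS 242 and SS 294, and in the other 7 steers it lay between −1.02 and 0.48. Its mean was −0.67 ± 1.21 in SS and −0.75 ± 1.57 in NS, a difference of 0.084 (exact permutation p = 0.913) that was −0.68 without NS 242, −0.11 without SS 274, −0.040 without SS 287 and −0.17 without SS 310.

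SLC16A1 (ENSBTAG00000015107) encodes the monocarboxylate transporter that carries lactate, pyruvate and butyrate together with protons. It stood at 606, 399.7, 545 and 142 CPM in the NS and at 326, 716, 241, 320.2 and 480.0 CPM in SS. NS 242 was the lowest of the 9 steers and SS 287 the highest, and the means of 417 ± 188 CPM in SS and 423 ± 206 CPM in NS were close (difference 0.064, SE 0.46, exact permutation p = 0.897). The difference was 0.10 in edgeR, 0.12 in DESeq2, −0.40 without NS 242, −0.16 without SS 287 and −0.014 without SS 310.

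SLC26A2 (ENSBTAG00000014615), a sulfate transporter that supplies the sulfation of mucins and proteoglycans, had 201, 141, 128 and 43.6 CPM in NS and 39.4, 97.7, 14.3, 70.1 and 158 CPM in SS. Of the 5 SS, 4 were below the 3 higher NS, but SS 310 lay above NS 152 and NS 165, and NS 242 was below 3 SS. Means were 76.0 ± 55.8 CPM in SS and 128 ± 64.8 CPM in NS, with a difference of −0.96 (SE 0.68, exact permutation p = 0.27). It was −0.68 in edgeR, −0.66 in DESeq2, −0.47 without SS 294 and −0.58 in the fit without NS 242, SS 274 and SS 294, which was added after the data were seen.

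SLC20A1 (ENSBTAG00000007895), a sodium-phosphate cotransporter, had 217, 221, 206 and 156 CPM in NS and 131, 205, 46.2, 142 and 175 CPM in SS. The 3 NS rich in epithelium were above every SS, though by a small margin over SS 287, and NS 242 lay within the SS range. The difference of −0.66 (SE 0.39, exact permutation p = 0.127) was the one with the lowest p of the 18, and it was −0.40 in edgeR, −0.38 in DESeq2 and −0.30 without SS 294. SLC38A2 (ENSBTAG00000011105), a sodium-coupled transporter of small neutral amino acids, varied least of the class, with 527, 615, 569 and 604 CPM in NS and 428, 659, 497, 575 and 668 CPM in SS. Its highest value was 1.56 times its lowest, and NS 242 ranked with the other NS. The difference was −0.052 in limma, 0.088 in edgeR and 0.11 in DESeq2.

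Over the 7 plasma membrane carriers the median difference was −0.23, with 6 lower in SS by the mean. It stayed below 0 under median-of-ratios scaling (−0.080), edgeR (−0.089) and DESeq2 (−0.069), and it was −0.62 without NS 242 and −0.078 without SS 274.

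The 14 partners of these carriers in ion transport include the sodium pump, CFTR and carbonic anhydrases. In limma, 0 of 14 had an unadjusted p below 0.05 in either direction, against 3.6% (lower) and 0.357% (higher) of all genes. By the mean, 10 partners, or 71.4%, were lower in SS, beside 64.8% of all genes and 73.7% of the named genes. The median difference was −0.78, beside −0.13 over all genes and −0.18 over the named genes. The partner differences are those of limma on CPM only. No partner list was recomputed under median-of-ratios scaling, where 48.9% of all genes were lower. The most negative differences were those of CLCA1, a secreted goblet cell protein that is also on the goblet cell list, and CA2, a cytosolic carbonic anhydrase. CLCA1 had 4814, 9673, 4066 and 409.9 CPM in NS and 805, 3929.6, 40.8, 3531 and 5474 CPM in SS (difference −1.30, SE 1.48). CA2 had 693, 368, 453 and 82.6 CPM in NS and 123, 682, 3.60, 231 and 679 CPM in SS (difference −1.16, SE 1.41). Its value in SS 294 rested on 27 reads. In both genes NS 242, SS 274 and SS 294 were lowest, as for SLC12A2 and SLC26A2. The most positive differences were those of KCNMA1, a potassium channel that smooth muscle also uses, with 105, 135, 162 and 31.0 CPM in NS and 128, 63.9, 378, 256 and 76.4 CPM in SS (difference 0.64, SE 0.63), and of FXYD1, a regulator of the sodium pump, at 0.17 (SE 0.54). SS 294 and SS 299, the steers richest in smooth muscle markers, were the highest for KCNMA1.

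The 5 carriers of internal membranes were grouped by the compartment in which they are best known to act, although the study's list places SLC37A1, SLC30A5 and SLC39A7 at the plasma membrane. SLC35A3 (ENSBTAG00000012454), which brings UDP-N-acetylglucosamine into the Golgi, stood at 316, 366, 378 and 88.9 CPM in the NS and at 77.2, 719, 51.0, 316 and 599 CPM in SS. SLC35A1 (ENSBTAG00000014057), which brings CMP-sialic acid there, had 83.1, 88.7, 64.7 and 32.5 CPM in NS and 32.0, 108, 32.4, 71.0 and 132 CPM in SS. For both, SS 287 and SS 310 were above every NS, and SS 274 and SS 294 lay beside or below NS 242, the lowest NS. Means of SLC35A3 were 353 ± 301 CPM in SS and 287 ± 135 CPM in NS, while the log2 difference was −0.17 (SE 0.85, exact permutation p = 0.897), so that the means of CPM and of log2 values differ in sign. That difference was 0.014 without NS 152, 0.029 without NS 165, 0.21 without SS 274, 0.36 without SS 294, and 0.39 in edgeR and 0.40 in DESeq2. For SLC35A1 the difference was 0.023 (SE 0.49, exact permutation p = 0.976), and it was 0.25 in edgeR, 0.27 in DESeq2, −0.29 without NS 242, −0.17 without SS 287, −0.015 without SS 299 and −0.24 without SS 310.

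SLC37A1 (ENSBTAG00000021286), an exchanger of sugar phosphates and phosphate, had 218, 171, 201 and 60.5 CPM in NS and 49.0, 201, 9.21, 124 and 272 CPM in SS. Its highest value, in SS 310, was 29.6 times its lowest, in SS 294, and the difference was −0.87 (SE 0.91, exact permutation p = 0.5), or −0.23 in edgeR, −0.21 in DESeq2, −0.11 without SS 294 and −1.31 without SS 310. The zinc carriers varied less. SLC30A5 (ENSBTAG00000001013), which loads zinc into the secretory pathway, had 171, 193, 167 and 111 CPM in NS and 106, 201, 107, 139 and 197 CPM in SS. SLC39A7 (ENSBTAG00000008191), which releases zinc from the endoplasmic reticulum, had 111, 104, 94.3 and 53.3 CPM in NS and 52.8, 109, 46.3, 70.8 and 123 CPM in SS. NS 242, SS 274 and SS 294 were the lowest steers for both zinc carriers, with a range of 1.90-fold for SLC30A5 and 2.66-fold for SLC39A7, and differences of −0.13 (SE 0.26) and −0.22 (SE 0.34) in limma, 0.011 and −0.062 in edgeR, and 0.034 and −0.040 in DESeq2. With 1 steer left out, SLC30A5 ran from −0.29 without NS 242 to −0.015 without SS 274, and SLC39A7 from −0.45 without NS 242 to −0.047 without SS 294.

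The median difference over the 5 carriers of internal membranes was −0.17, with 4 lower in SS by the mean. It was −0.020 under median-of-ratios scaling, above 0 in edgeR (0.011) and DESeq2 (0.034), −0.45 without NS 242 and −0.015 without SS 274. NS 242, SS 274 and SS 294 were below the 9-steer median for all 5 of them, and SS 287 and SS 310 were above it for all 5.

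Of 16 partners that make or use the same sugar donors and activated sulfate, 0 had an unadjusted p below 0.05 in limma. Of all genes, 3.6% had such a p and were lower, and 0.357% were higher. By the mean, 15 partners, or 93.8%, were lower in SS, beside 64.8% of all genes and 73.7% of the named genes. Under median-of-ratios scaling, where this list was not recomputed, 48.9% of all genes were lower. The median difference was −0.41, beside −0.13 over all genes and −0.18 over the named genes. CHST4, a sulfotransferase, had 390.4, 398, 323 and 41.0 CPM in NS and 25.7, 340.3, 2.67, 153 and 458 CPM in SS (difference −1.56, SE 1.43). Its value in SS 294 rested on 20 reads. PAPSS2, which makes the sulfate donor, had 206, 224, 160.0 and 36.7 CPM in NS and 34.2, 164, 10.4, 82.8 and 178 CPM in SS (difference −1.05, SE 0.87). The low steers were again NS 242, SS 274 and SS 294. At the other end, UAP1, which makes UDP-N-acetylglucosamine, had a difference of 0.14 (SE 0.28) and IMPAD1, a Golgi phosphatase of the sulfation pathway, one of −0.012 (SE 0.46).

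The 6 mitochondrial carriers did not vary alike. SLC25A4, SLC25A5 and SLC25A6 are isoforms of the ADP/ATP translocase, which exports ATP from mitochondria; SLC25A4 is the isoform typical of muscle and heart, and SLC25A5 that of proliferating and epithelial cells. They are close paralogs, and the handling of reads that match more than 1 of them is not given in the sources read here, so their separate levels are uncertain to that extent. SLC25A5 (ENSBTAG00000046037) stood at 386, 451, 423 and 124 CPM in the NS and at 68.5, 659.7, 12.8, 156 and 392 CPM in SS. SLC25A4 (ENSBTAG00000013208) stood at 41.4, 51.5, 64.9 and 38.1 CPM in the NS and at 138, 28.2, 118, 73.1 and 25.7 CPM in SS. SLC25A6 (ENSBTAG00000047418) was nearly level, with 399, 427, 402 and 412 CPM in NS and 316, 501, 326, 394 and 392 CPM in SS.

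SS 274 and SS 294 were the highest of all 9 steers for SLC25A4 and the lowest for SLC25A5, and SS 287 and SS 310 were the lowest for SLC25A4. NS 242 was low for both. SLC25A5 had the widest range of the 18 members, 51.5-fold, and in limma the only difference beyond 1 on the log2 scale, −1.25 (SE 1.03, exact permutation p = 0.357), which was −0.31 in edgeR and −0.29 in DESeq2, with means of 258 ± 267 CPM in SS and 346 ± 150.0 CPM in NS. In limma it was −0.43 without SS 294 and −1.84 without SS 287. The difference of SLC25A4 was 0.35 (SE 0.52, exact permutation p = 0.563), with 76.7 ± 51.2 CPM in SS and 49.0 ± 12.1 CPM in NS, and it was 0.79 in edgeR, 0.82 in DESeq2, 0.064 without SS 274, 0.67 without SS 310 and −0.46 in the added fit without NS 242, SS 274 and SS 294. That of SLC25A6 was −0.11 (SE 0.17), and 0.043 under median-of-ratios scaling, 0.042 in edgeR, 0.066 in DESeq2, −0.040 without SS 274 and −0.21 without SS 287.

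The log2 ratio of SLC25A4 to SLC25A5 was −3.21, −3.12, −2.69 and −1.69 in NS and 1.01, −4.52, 3.16, −1.09 and −3.90 in SS. It was highest in SS 294 and SS 274, and in SS 287 and SS 310 the ratio was below that of every NS. The mean was −1.07 ± 3.25 in SS and −2.68 ± 0.69 in NS, a difference of 1.61 (exact permutation p = 0.389) that was 0.55 without SS 294 and 2.47 without SS 287. The spread within SS was thus larger than the difference between the groups.

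**Figure D2:**
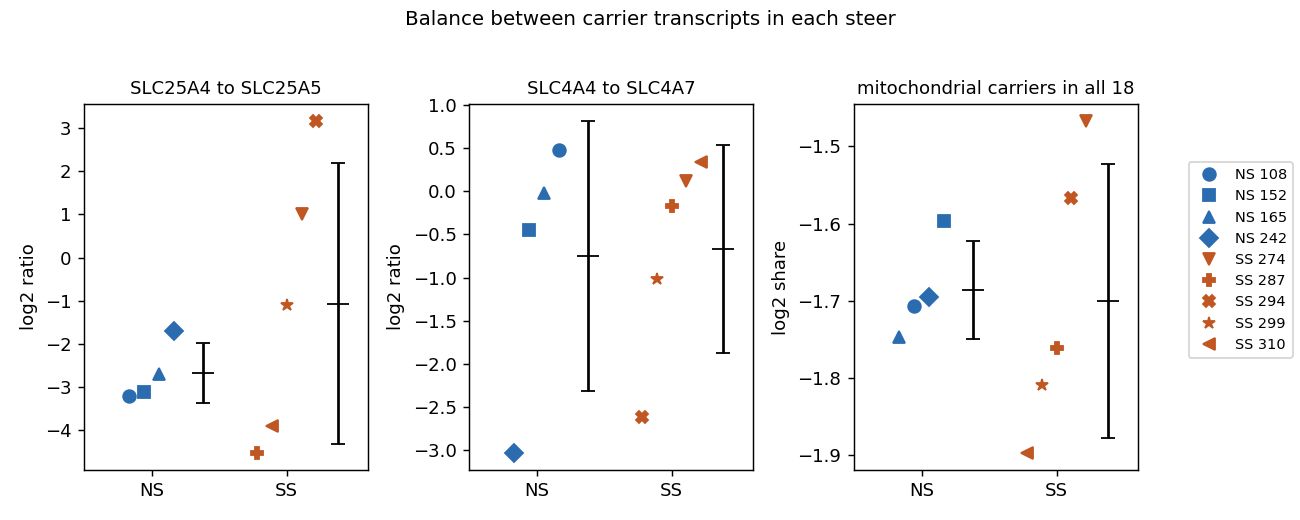
Points are steers (NS blue, SS orange), and black bars give the group mean and SD; the axes are the log2 ratio of SLC25A4 to SLC25A5, the log2 ratio of SLC4A4 to SLC4A7 and the log2 share of the mitochondrial carriers in the summed CPM of all 18 members. The ratio of SLC25A4 to SLC25A5 runs from −4.52 to 3.16 within SS and from −3.21 to −1.69 within NS.

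SLC25A3 (ENSBTAG00000012890), the mitochondrial phosphate carrier, had 359, 296, 262 and 202 CPM in NS and 180.3, 273, 200.1, 208 and 289.7 CPM in SS. The 2 lowest values were those of SS 274 and SS 294, and the difference was −0.27 (SE 0.22, exact permutation p = 0.254), or −0.16 in edgeR, −0.14 in DESeq2, −0.14 without NS 108 and −0.42 without NS 242. SLC25A24 (ENSBTAG00000003752), which exchanges ATP-magnesium for phosphate under the control of calcium, had 310.5, 410.1, 304 and 63.5 CPM in NS and 119.5, 352, 89.7, 177 and 329 CPM in SS. Here NS 242 was the lowest of all, and the difference was −0.26 (SE 0.60, exact permutation p = 0.698). It was −0.11 under median-of-ratios scaling, 0.030 without NS 152, −0.86 without NS 242 and −0.0011 without SS 294. SLC25A36 (ENSBTAG00000015310), a carrier of pyrimidine nucleotides, had 77.0, 69.8, 78.3 and 91.7 CPM in NS and 131, 68.9, 91.6, 89.7 and 64.5 CPM in SS. Its order was the reverse of most members, with SS 274, NS 242 and SS 294 highest, and its difference of 0.13 (SE 0.22) was 0.31 in edgeR, 0.34 in DESeq2 and −0.020 without SS 274.

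Slc25a1 (ENSBTAG00000008528), the citrate carrier, is written with small letters in the list and so is not a member. It had 43.7, 46.7, 45.9 and 39.7 CPM in NS and 238, 53.6, 32.4, 34.6 and 48.3 CPM in SS. SS 274 stood far above the other 8. It was also the highest steer for LPL and FABP4, though low for CFD (56.0 CPM). Its summed fibroblast (24986 CPM), macrophage (1113 CPM) and endothelial (588 CPM) markers were the highest as well.

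The median difference over the 6 mitochondrial carriers was −0.18, with 4 lower and 2 higher in SS by the mean; it was −0.035 under median-of-ratios scaling, −0.061 in edgeR, −0.036 in DESeq2 and −0.026 without SS 294. In summed CPM they made up 30.6, 33.1, 29.8 and 30.9% of all 18 members in NS and 36.2, 29.5, 33.8, 28.5 and 26.8% in SS. The means were 31.0 ± 3.88% in SS and 31.1 ± 1.39% in NS, with SS 274 and SS 294 above every NS and SS 287, SS 299 and SS 310 below every NS. The share of the carriers of internal membranes ran from 9.90% in SS 294 to 23.8% in SS 310.

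The 20 mitochondrial partners are subunits of ATP synthase, porins, pyruvate carriers, related outer membrane proteins and citrate synthase. In limma, 0 of 20 had an unadjusted p below 0.05, against 3.6% (lower) and 0.357% (higher) of all genes. By the mean, 18 partners, or 90%, were lower in SS, beside 64.8% of all genes and 73.7% of the named genes. Under median-of-ratios scaling, where this list was not recomputed, 48.9% of all genes were lower. The median difference was −0.21, beside −0.13 over all genes and −0.18 over the named genes. The most negative were ATP5G3 (difference −0.54, SE 0.46) and ATP5G1 (−0.42, SE 0.51), which encode the same ring subunit of ATP synthase. ATP5G3 had 167, 144, 123 and 95.9 CPM in NS and 63.2, 205, 39.4, 69.6 and 158 CPM in SS, and ATP5G1 had 52.0, 39.5, 40.1 and 22.5 CPM in NS and 14.4, 67.0, 13.3, 22.0 and 53.8 CPM in SS. The most positive were MTCH1 (0.077, SE 0.16) and MPC2 (0.0096, SE 0.26). Levels of MTCH1 lay between 113 CPM in NS 242 and 170.3 CPM in SS 310. The median SD of log2 values was 0.45 over these partners and 0.59 over the mitochondrial carriers.

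Most carriers followed the epithelial markers from steer to steer. The mean log2 level of the 13 markers, none of which is a carrier, was 9.39, 9.40, 9.20 and 6.22 in NS and 6.56, 9.49, 2.92, 8.20 and 9.55 in SS, so the steers were spread unevenly, with 5 bunched at the top and 4 scattered below. Correlations of the 18 members with this mean and with the smooth muscle mean make 36 relations, and p-values come from exact permutation over all pairings of the 9 steers with Benjamini-Hochberg adjustment over the 36. At an adjusted p below 0.05 for Pearson's r, 12 of 18 members rose with the epithelial mean and 0 fell, while with Spearman's rho 10 of 18 rose and 1 fell, SLC25A36. For all genes tested other than the markers, the cut was set at the weakest member that passed, r of 0.74 and rho of 0.80 in size. At or above it with the epithelial mean were 16.8% of genes by r, against 12 of 18 members, and 9.83% by rho, against 10 of 18; at or below its negative were 8.34% by r, against 0 of 18, and 8.24% by rho, against 1 of 18. The median r was 0.86 over the members and 0.078 over these genes. Since the members set the cut, these shares are a description only. The genes compared are of any level, while the members come from a list of abundant transcripts. No such share was taken over the named genes of that list. The 12 were 4 of 7 plasma membrane carriers (SLC12A2, SLC4A4, SLC20A1 and SLC26A2), 5 of 5 carriers of internal membranes and 3 of 6 mitochondrial carriers (SLC25A3, SLC25A5 and SLC25A24). With the smooth muscle mean, 0 of 18 members passed by either coefficient, and r ran from −0.35 to 0.39. At the same cuts, 4.58% of genes by r and 3.91% by rho were positive with that mean and 1.22% and 0.682% negative, against 0 of 18 members in each case.

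SLC37A1 had the highest r with the epithelial mean over the 9 steers, 0.99 (exact permutation p = 0.000287, Benjamini-Hochberg adjusted p = 0.00303) and rho = 0.90 (exact permutation p = 0.00203, adjusted p = 0.0122). SLC25A5 had r = 0.97 (exact permutation p = 0.000441, adjusted p = 0.00303) and rho = 0.85 (exact permutation p = 0.00607, adjusted p = 0.0243), and SLC26A2 had r = 0.96 (exact permutation p = 0.000367, adjusted p = 0.00303) and rho = 0.82 (exact permutation p = 0.0108, adjusted p = 0.0388). For all 3, the lowest value was that of SS 294, the steer with the lowest marker mean, and NS 242 and SS 274 came next. SLC39A7 had r = 0.91 (exact permutation p = 2.2e-05, adjusted p = 0.000794) and rho = 0.93 (exact permutation p = 0.00075, adjusted p = 0.00675). By rho, SLC39A7, SLC35A1 and SLC30A5 were level at 0.93, and SLC25A24 (0.92) was also above SLC37A1.

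Leaving out NS 242 and SS 294, the 2 steers farthest from the median of the marker mean, gave r = 0.98 for SLC37A1, 0.97 for SLC25A5, 0.91 for SLC26A2 and 0.97 for SLC39A7. In these 7 steers 12 members again passed, 10 with positive r, which were among the 12 above, and 2 with negative r. Of all genes tested other than the markers, 11.2% had an r at or above the weakest of these in size (0.88), against 10 of 18 members, and 4.83% at or below its negative, against 2 of 18, which again is a description only. SLC4A4 (r = 0.86 in 9 steers and 0.53 in 7, exact permutation p = 0.22 in 7) and SLC20A1 (r = 0.93 in 9 and 0.87 in 7, exact permutation p = 0.0202 before adjustment in 7) no longer did, so the relation of SLC4A4 rests on those steers. SLC25A4 and SLC25A36 passed in the 7 steers only, as the members with negative r. SLC25A4 had r = −0.65 in 9 steers (exact permutation p = 0.0509, adjusted p = 0.131) and −0.88 in 7 (exact permutation p = 0.000397), and SLC25A36 had r = −0.62 in 9 (exact permutation p = 0.0804, adjusted p = 0.181) and −0.98 in 7 (exact permutation p = 0.000198). For SLC25A36, rho was −0.93 over the 9 steers (exact permutation p = 0.00075, adjusted p = 0.00675). SLC4A7 had r = −0.46 in 9 steers (exact permutation p = 0.215) and 0.55 in 7, but −0.89 in the 6 that remain without SS 274 (exact permutation p = 0.0208 before adjustment), so the positive value rests on that steer.

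Among the 6 steers with the highest marker mean, which leave out NS 242, SS 274 and SS 294, r had the sign it had in 9 steers for all 18 members. It was 0.86 for SLC37A1, 0.91 for SLC25A5, 0.75 for SLC26A2 and 0.96 for SLC39A7, and its median over the members was 0.72, against 0.86 in all 9 steers. SS 299, with a marker mean of 8.20 against 9.20 to 9.55 in the others, carries most of the spread in these 6, and rho was 0.71 for SLC37A1, 0.54 for SLC25A5, 0.43 for SLC26A2, 0.83 for SLC39A7, and 0.086 for SLC20A1 and SLC25A6. The exact permutation p of r was 0.0264 for SLC37A1, 0.0556 for SLC25A5, 0.0833 for SLC26A2 and 0.00556 for SLC39A7, before adjustment. Besides SLC37A1 and SLC39A7, only SLC30A5 (exact permutation p = 0.00278) and SLC25A24 (0.0472) had positive r with such a p below 0.05. With negative r, SLC4A7 (0.0208), SLC25A4 (0.0125) and SLC25A36 (0.00139) did. In the same 6 steers the smooth muscle mean ran against the epithelial mean (r = −0.73, exact permutation p = 0.1), and the median r of the members with it was −0.66, with −0.76 for SLC39A7 and 0.92 for SLC25A4. In the 6 steers with the highest smooth muscle mean, which leave out NS 242, SS 274 and SS 287, that median was −0.81, with −0.95 for SLC39A7 and 0.99 for SLC25A4, and the median r with the epithelial mean was 0.93. Whether the relation in 6 steers belongs to either mean apart from the other was not tested. With the smooth muscle mean, SLC25A4 had r = 0.13 in 9 steers (exact permutation p = 0.73) and 0.89 in 7 (exact permutation p = 0.00952), after leaving out SS 274 and SS 294, the 2 steers farthest from the median of that mean. It was the only member that passed there, or 1 of 18 with positive r, against 2.4% of genes at or above the cut of 0.88, and 0 of 18 had negative r past it, against 0.597%. SS 274 is left out of each of these smaller sets of steers. It had the highest SLC25A4 of the 9 steers (138 CPM) and the lowest summed smooth muscle markers (416 CPM). For SLC25A4, r with the smooth muscle mean was 0.12 within SS and 0.83 within NS.

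**Figure D3:**
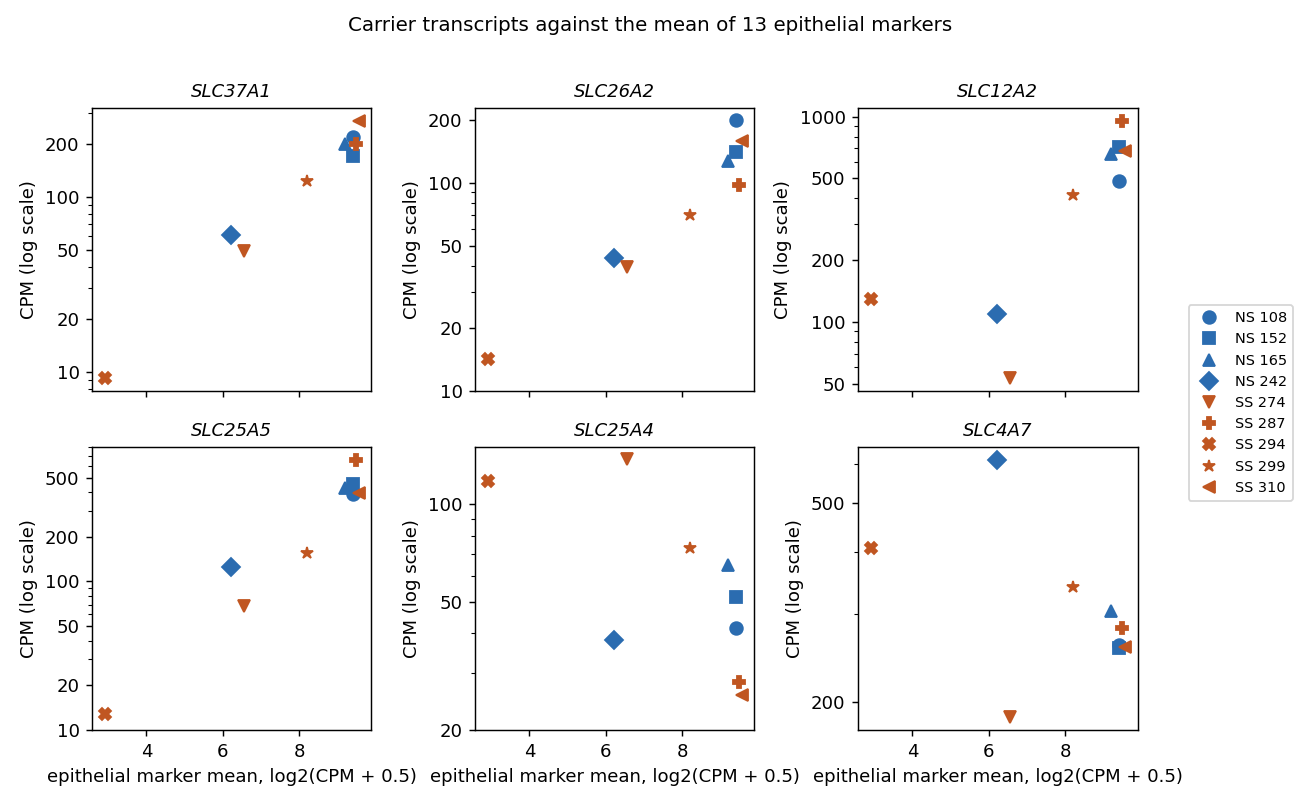
Each panel plots the CPM of a carrier (log axis) against the mean log2(CPM + 0.5) of 13 epithelial markers, with a point per steer, NS in blue and SS in orange. SLC37A1, SLC26A2, SLC12A2 and SLC25A5 are high where the markers are high, while SLC25A4 is highest in SS 274 and SS 294 and SLC4A7 in NS 242.

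The same 3 steers were lowest in each class of carrier. Relative to each gene's median over the 9 steers, the median log2 deviation of the 18 members was 0.030, 0.16, 0.12 and −0.97 in NS and −0.63, 0.23, −1.07, −0.27 and 0.23 in SS. Over all genes tested it was 0.027, 0, 0 and 0.12 in NS and −0.14, −0.13, −0.13, 0.0054 and 0 in SS. NS 242 lay below the median for 14 of 18 members, and SS 274 and SS 294 for 15 each. In NS 242, SS 274 and SS 294 the deviation was −1.15, −0.43 and −1.62 for plasma membrane carriers, −1.11, −1.14 and −1.12 for those of internal membranes, and −0.40, −0.44 and −0.34 for mitochondrial carriers.

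With the epithelial marker mean as a covariate, a fit added after the data were seen, 0 of 18 members had an unadjusted p below 0.05 in limma, against 4.3% of all genes, and the median difference was 0.011 for plasma membrane carriers, 0.059 for carriers of internal membranes and −0.0034 for mitochondrial carriers. Without NS 242, SS 274 and SS 294 together, which leaves 3 NS and 3 SS and was also added, 0 of 18 members had an unadjusted p below 0.05, against 2.08% of all genes, and these medians were −0.087, −0.0020 and −0.27. Whether the amount of epithelium set the levels of the carriers was not tested.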

How the data were processed

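The authors deposited CPM per Ensembl gene for rectal tissue of 4 NS and 5 SS, from stranded libraries aligned to UMD 3.1. The submitters' notes name TopHat2, HTSeq and edgeR; the strand and multiple-match settings used in counting are not given in the sources read here. Every CPM column summed to 1000000, and whole reads were recovered for 100.0% of values within 0.01 reads. Symbols came from the study's list. The members and lists were chosen with earlier results of these data known. All members are named, and of each partner list the genes with an unadjusted p below 0.05 and the 2 largest differences in each direction.

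Genes that reached 0.5 CPM in 4 or more steers were kept, and their log2(CPM + 0.5) was fitted with limma 3.58.1 (eBayes with an intensity trend, no covariate, all 9 steers) in R 4.3.3, after a test on simulated data. Recovery in that simulation is not given here, so it does not show what could be detected in these steers. Fold differences on the log2(CPM + 0.5) scale understate those of low genes. Single values were compared with an exact two-sided permutation test over the 126 ways to choose 4 of 9 steers, whose smallest p is 0.00794. Alternatives were pseudocounts of 0.1 and 1, no filter, median-of-ratios scaling, edgeR 4.0.16 and DESeq2 1.42.0 on the recovered reads, and leaving out each steer; 2 fits were added after the data were seen. Summaries and figures were made with scipy 1.17.1, matplotlib 3.10.9, pandas 2.3.3 and numpy 2.4.6 under Python 3.11.15. Transcript lengths were not used. The gene said to lead a marker list is that of highest CPM over the 9 steers together, uncorrected for length, and need not be the highest in each steer.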

Additional observations from a re-analysis of the deposited data

Results flagged for a closer look

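In NS, a single steer lay far from the other 3 for 3 carriers, by a ratio of the gap to its nearest neighbour over the whole range of the group on the log2 scale. NS 242 was the low steer each time. The ratio was 0.876 for SLC35A3, with 88.9 CPM in NS 242 against 316, 366 and 378 CPM. It was 0.879 for SLC25A5, with 124 CPM against 386, 451 and 423 CPM, and 0.84 for SLC25A24, with 63.5 CPM against 310.5, 410.1 and 304 CPM. NS 242 also had the lowest epithelial markers of the NS, at 1613 CPM summed, and the highest leukocyte markers of all steers, at 3591 CPM; their part in these values was not tested. Chance marks about 1 in 20 groups, so about 2.1 of the 42 groups examined would be marked by chance, and 3 were. No SS value stood out in this way, although SS 294 was the lowest of all 9 steers for 7 members.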

How the results depend on the processing

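No member passed an unadjusted p of 0.05 in limma, edgeR or DESeq2, under any alternative or with any steer left out, and the lowest unadjusted p among them was 0.0633. Of 306 member differences recomputed, 260 kept their sign and 46 did not; none was called, and the causes were not tested. Pseudocounts of 0.1 and 1 and the absence of a filter turned none. With median-of-ratios scaling, SLC38A2 came to 0.10, SLC4A4 to 0.0035, SLC30A5 to 0.023 and SLC25A6 to 0.043. In edgeR, SLC38A2 came to 0.088, SLC35A3 to 0.39, SLC30A5 to 0.011 and SLC25A6 to 0.042, and in DESeq2 the same 4 came to 0.11, 0.40, 0.034 and 0.066. With the epithelial marker mean as a covariate, which was chosen after seeing the data, SLC38A2 came to 0.011, SLC12A2 to 0.15, SLC4A4 to 0.28, SLC35A3 to 0.55, SLC30A5 to 0.059, SLC39A7 to 0.048 and SLC25A24 to 0.20. Without NS 242, SS 274 and SS 294, also chosen after seeing the data, SLC16A1 came to −0.087, SLC38A2 to 0.15, SLC12A2 to 0.083, SLC4A7 to 0.092, SLC35A3 to 0.55, SLC25A4 to −0.46, SLC25A6 to 0.059 and SLC25A36 to −0.026.

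With each steer left out in turn, SLC16A1 ran from −0.40 to 0.30, SLC38A2 from −0.12 to 0.044, SLC12A2 from −1.10 to 0.12, SLC4A4 from −0.62 to 0.21, SLC4A7 from −0.36 to 0.060, SLC35A1 from −0.29 to 0.27, SLC35A3 from −0.66 to 0.36, SLC25A24 from −0.86 to 0.030 and SLC25A36 from −0.020 to 0.23. The other 9 members kept their sign, but SLC20A1 ran from −0.83 to −0.30, SLC26A2 from −1.41 to −0.47, SLC37A1 from −1.31 to −0.11, SLC30A5 from −0.29 to −0.015, SLC39A7 from −0.45 to −0.047, SLC25A3 from −0.42 to −0.14, SLC25A4 from 0.064 to 0.67, SLC25A5 from −1.84 to −0.43 and SLC25A6 from −0.21 to −0.040. The log2 ratio of SLC4A4 to SLC4A7 ran from −0.68 to 0.57, the log2 share of mitochondrial carriers from −0.072 to 0.036, and the log2 ratio of SLC25A4 to SLC25A5 from 0.55 to 2.47, above 0 throughout.

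Of the 12 members that rose with the epithelial marker mean, 11 were kept with a pseudocount of 0.1 and 11 with median-of-ratios scaling (SLC25A3 was lost in each), 12 with a pseudocount of 1, and 10 without the 2 steers farthest from the median. With the smooth muscle mean, 1 member passed without the 2 farthest steers (SLC25A4) and 0 otherwise.

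With 9 steers, 3 of them poor in epithelial transcripts, the SE of the member differences ran from 0.17 to 1.03 on the log2 scale, which limits what could be detected. Read depth limits the members less, since the lowest value rested on 69 reads.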
